A study of Mus musculus with 18 samples.

Results

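The 10 intestinal tumours described here are the ends of a ranking by a proliferation score: the 5 tumours with the highest and the 5 with the lowest score among 15 tumours of a set of 18. The tumours were chosen by measured values. The score of a tumour was the mean of log2(RPKM + 1) over 5 genes of dividing cells (Mki67, Top2a, Cdk1, Ccnb1 and Mcm5), where RPKM is the read count scaled by gene length and by library size, a level that can be compared between genes. Fast and slow cycling are therefore names for the level of these transcripts, and the speed of the cell cycle was not measured.

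The libraries came from resected intestinal tumours of male C57BL/6 mice carrying Apc Min, a germline truncating mutation of the tumour suppressor Apc in 1 of its copies. The study asked how RNA levels in such tumours differ by Macrod2 genotype. Every mouse, controls included, carried Apc Min/+. Mice were Macrod2+/+ (wt), Macrod2-/+ (het) or Macrod2-/- (hom), and a tumour is named here by its genotype and mouse number. The titles number mice within a genotype, so each tumour was taken as a separate mouse; the part of Macrod2 that was deleted, the age of the mice and the number of tumours pooled per library were not given in the sources used here.

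Dividing cells pass through a phase in which origins of replication are licensed, a phase of DNA synthesis and a phase of mitosis, and each draws on its own set of genes. Transcription factors of the E2F family drive the genes of the first phases, and B-Myb and FoxM1 with their partners drive those of mitosis, in part through short promoter elements. In the intestinal epithelium, division is held in the crypts by Wnt signalling, which loss of Apc switches on without a ligand, and cells leaving the crypt stop dividing as they become absorptive or secretory cells.

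The labels give the large intestine as the site of all 15 tumours, and most of the markers of that site that were checked were low or absent. Car1, a carbonic anhydrase of the colon, was at a median of 0.122 RPKM and at most 5.28 RPKM over the 15 tumours, and Aqp8, a water channel of the colon, was at a median of 0.308 and at most 5.18 RPKM. The distal patterning gene Hoxa13 was at 0 in 14 of the 15 tumours, Hoxb13 in 10 and Hoxd13 in 11. The colonic hormone gene Insl5 was at 0 in 13. Fabp6 and Slc10a2, the bile acid binding protein and the bile acid transporter of ileal enterocytes, were at medians of 1282 and 29.0 RPKM. Sis, a sucrase, and Alpi, an alkaline phosphatase, both of the small intestinal brush border, were at medians of 82.8 and 54.3 RPKM. Gata4, a factor of the proximal small intestine, lay between 0.0830 and 13.95 RPKM in the 15 and between 49.0 and 52.9 RPKM in the 3 tumours left out by the selection (wt 1, wt 2 and het 4). Only het 4 of those was labelled as a tumour of the small intestine. The 15 are called tumours below, with no site. The Hox genes were chosen for this check after their values were seen.

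Total counts of the 15 libraries ran from 13529204 to 20857918 reads. The library wt 3 stood apart: Rn45s, the precursor of ribosomal RNA, took 27.0% of its counts and at most 0.725% of any other. It held rank 11 in score, the first place in the low side, so results that rest on it are given with and without it. Pairs of libraries differed by more than sampling noise, with a chi-square of at least 17.9 per degree of freedom, so none was counted as a copy of another.

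The 250 bases before the start site of each score gene are printed to show the elements by which such genes are known. Capitals mark 3 motifs searched on both strands: the CCAAT box (CCAAT), the CHR element of mitotic genes (TTTGAA or TTCGAA) and the E2F element (TTTCGCGC or TTTGGCGC). Where matches overlap, the capitals run together. Sequences are from RefSeq, build GRCm38.p6.

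Mki67 (chr7:135716380-135716629, minus strand): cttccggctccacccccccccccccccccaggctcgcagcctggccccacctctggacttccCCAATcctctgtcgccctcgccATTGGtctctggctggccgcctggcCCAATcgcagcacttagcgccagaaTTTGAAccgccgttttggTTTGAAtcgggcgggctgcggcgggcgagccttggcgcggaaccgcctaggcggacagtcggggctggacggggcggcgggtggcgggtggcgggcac
Top2a (chr11:99024190-99024439, minus strand): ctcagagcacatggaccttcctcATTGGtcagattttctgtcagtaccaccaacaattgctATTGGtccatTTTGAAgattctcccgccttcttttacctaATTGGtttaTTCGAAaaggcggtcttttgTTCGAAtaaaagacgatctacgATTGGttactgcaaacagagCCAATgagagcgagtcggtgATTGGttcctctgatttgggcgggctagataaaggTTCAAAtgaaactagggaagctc
Cdk1 (chr10:69352913-69353162, minus strand): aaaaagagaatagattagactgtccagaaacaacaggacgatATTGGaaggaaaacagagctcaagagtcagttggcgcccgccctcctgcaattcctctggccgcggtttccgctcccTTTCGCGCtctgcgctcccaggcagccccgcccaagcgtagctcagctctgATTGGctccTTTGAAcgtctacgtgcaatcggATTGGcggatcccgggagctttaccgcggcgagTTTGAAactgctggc
Ccnb1 (chr13:100786487-100786736, minus strand): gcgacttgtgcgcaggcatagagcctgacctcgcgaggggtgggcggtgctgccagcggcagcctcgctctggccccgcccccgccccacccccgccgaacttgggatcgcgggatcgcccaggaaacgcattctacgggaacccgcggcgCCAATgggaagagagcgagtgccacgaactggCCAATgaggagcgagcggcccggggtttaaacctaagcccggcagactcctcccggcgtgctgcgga
Mcm5 (chr8:75109259-75109508, plus strand): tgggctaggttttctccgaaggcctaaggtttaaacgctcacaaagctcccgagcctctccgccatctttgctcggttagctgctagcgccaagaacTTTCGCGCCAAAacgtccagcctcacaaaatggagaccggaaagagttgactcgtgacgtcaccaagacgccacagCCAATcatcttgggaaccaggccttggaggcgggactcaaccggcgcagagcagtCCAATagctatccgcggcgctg

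All 5 windows held at least 2 CCAAT boxes, with 6 before Top2a. Mki67 and Cdk1 had 2 CHR matches each and Top2a had 4, and these letters were not found before Ccnb1 or Mcm5. E2F letters were found before Cdk1 (1 match) and Mcm5 (2 overlapping matches on opposite strands). Among 32851 promoters of the same length, 33.8% held a CCAAT box, 17.1% a CHR and 0.654% an E2F element. Among the 13233 of these that belong to genes compared between the sides below, the shares were 35.0%, 12.3% and 1.17%. Among 175 promoters of 150 genes from 6 lists (the 5 lists of replication and mitosis genes and that of cell cycle transcription factors described below), the shares were 55.4%, 28.0% and 9.14%. A match describes the letters in a window and is not a measured binding site.

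Per-tumour values below follow one order. The high side runs wt 5, het 6, wt 4, hom 2 and het 3, and the low side runs wt 3, het 2, hom 6, het 1 and hom 3, from higher to lower score within each side. The scores were 5.84, 5.75, 5.67, 5.35 and 5.30 on the high side and 5.02, 4.71, 4.61, 4.44 and 3.999 on the low side. Just outside the selection, het 5 scored 5.29, only 0.0115 below het 3, and hom 5 scored 5.07, 0.0410 above wt 3. The 5 middle tumours lay between 5.07 and 5.29, so the edges of both sides fall in a stretch where tumours differed little.

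The score genes chose the tumours, and their values are given as a description with no test. Mki67, which coats mitotic chromosomes, was at 41.6, 40.02, 40.6, 31.1 and 26.9 RPKM on the high side and at 26.3, 17.4, 19.5, 15.7 and 11.1 RPKM on the low side. Top2a, the topoisomerase that untangles sister DNAs, was at 118, 102, 88.2, 69.8 and 84.1 against 75.6, 45.2, 53, 38.5 and 27.4 RPKM. It was the score gene whose sides overlapped, since wt 3 (75.6 RPKM) exceeded hom 2 (69.8 RPKM). Cdk1, the kinase that starts mitosis, was at 94.6, 85.3, 102, 70.6 and 57.4 against 44.1, 40.9, 29.6, 31.9 and 23.9 RPKM. Ccnb1, its cyclin partner, was at 24.6, 23.9, 18.2, 20.1 and 15.9 against 12.5, 11.6, 10.6, 10.4 and 7.17 RPKM. Mcm5, a subunit of the replicative helicase, was at 48.7, 49.4, 44.7, 32 and 39.6 against 27.8, 26.4, 21.2, 18.5 and 13.9 RPKM. Mean levels of the 5 genes on the high side were 1.92 to 2.41 times those on the low side.

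**Figure D1:**
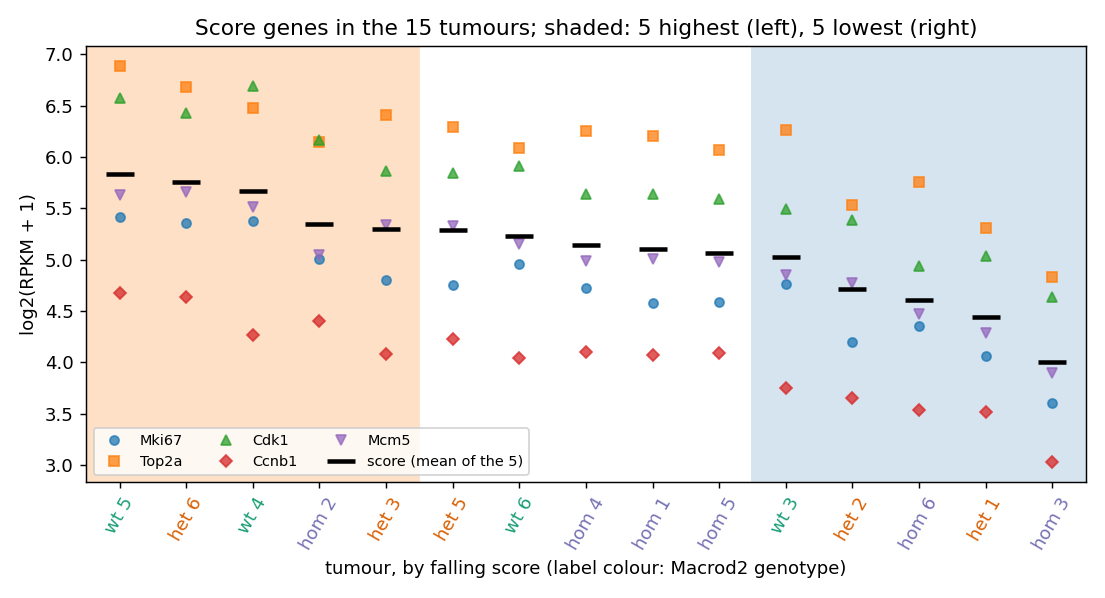
Levels of the 5 score genes (log2(RPKM + 1), vertical axis) in the 15 tumours in falling order of score (horizontal axis), with the score as a black bar and label colours for the Macrod2 genotype. The scores fall from 5.84 in wt 5 to 3.999 in hom 3, and the 5 middle tumours lie between 5.07 and 5.29.

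The high side held 2 wt, 2 het and 1 hom tumour, and the low side 1 wt, 2 het and 2 hom tumours. The middle held 1 wt, 1 het and 3 hom tumours. The mix of the high and low sides gave p = 1 in an exact two-sided Fisher-Freeman-Halton test, which at 5 tumours a side does not show that the mixes were alike. Over all 15 tumours, the score was 4.88 ± 0.49 (SD, n = 6) in hom, 5.10 ± 0.52 (n = 5) in het and 5.44 ± 0.38 (n = 4) in wt tumours. Hom tumours were 0.56 below wt tumours, with an exact two-sided permutation p = 0.1 that adjusts to 0.3 over 3 comparisons. Het tumours were 0.34 below wt (exact permutation p = 0.310, adjusted 0.464), and hom were 0.22 below het (exact permutation p = 0.496, adjusted 0.496). The scores of the genotypes overlapped in each pair. Macrod2, the ADP-ribose hydrolase targeted in these mice, was at 0.639, 0.69, 0.71, 0 and 0.364 RPKM on the high side and 0.581, 0.366, 0.0304, 0.32 and 0.0117 RPKM on the low side. Its level set the hom tumours apart, with the 3 hom tumours at or below 0.0304 RPKM and the others at 0.320 RPKM or more. Het and wt tumours overlapped, with het 6 (0.69 RPKM) above wt 5 (0.639 RPKM).

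Across the other genes, 13911 passed the filter on low counts and were compared between sides with edgeR, which gives the log2 fold change of the high over the low side from the read counts with its standard error (SE) and a p adjusted over all genes but the 5 of the score. At adjusted p under 0.05, 670 genes (4.82% of those tested) were higher in the high tumours and 207 (1.49%) were lower. The genes nearest the top shared an adjusted p of 0.0381, the smallest reached, so every call sat close to the threshold. The median size of the change was 0.77 for the higher and 1.14 for the lower genes, on the log2 scale. The RPKM of all 5 high tumours exceeded that of all 5 low tumours for 712 genes (5.12%) and lay below it for 285 (2.05%). Of the called genes, 446 of 670 and 144 of 207 were separated in this way.

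The number of calls depended on single tumours. Leaving out wt 5, wt 4, hom 3, het 1, hom 6 or het 2 left 0 genes called by edgeR, with 3014 to 3904 genes at an unadjusted p under 0.05. Without het 6, 1 gene was called. Without het 3 there were 2044 higher and 1620 lower genes, without hom 2 there were 825 and 394, and without wt 3 there were 522 and 208. With genotype as a covariate, edgeR called 0 genes (3114 at an unadjusted p under 0.05). The 877 called genes kept their sign in these fits, which the choice of genes and the shared tumours largely fix in advance, so it says nothing of stability. The mean of the middle tumours lay between the sides for 666 of the 670 higher and 201 of the 207 lower genes. These genes were chosen for a difference between the ends, and the middle tumours have middle scores by rule. A mean between the sides is therefore favoured in advance and is no independent result, and the share over all genes tested was not computed. "Higher" and "lower" below mean called in the fit of 5 against 5, and a number in brackets after a gene is its log2 fold change, with its SE where given. Counts of called list members stand beside 4.82% higher and 1.49% lower over all genes tested. A count of 1 or 2 members is not read as a result about a list.

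**Figure D2:**
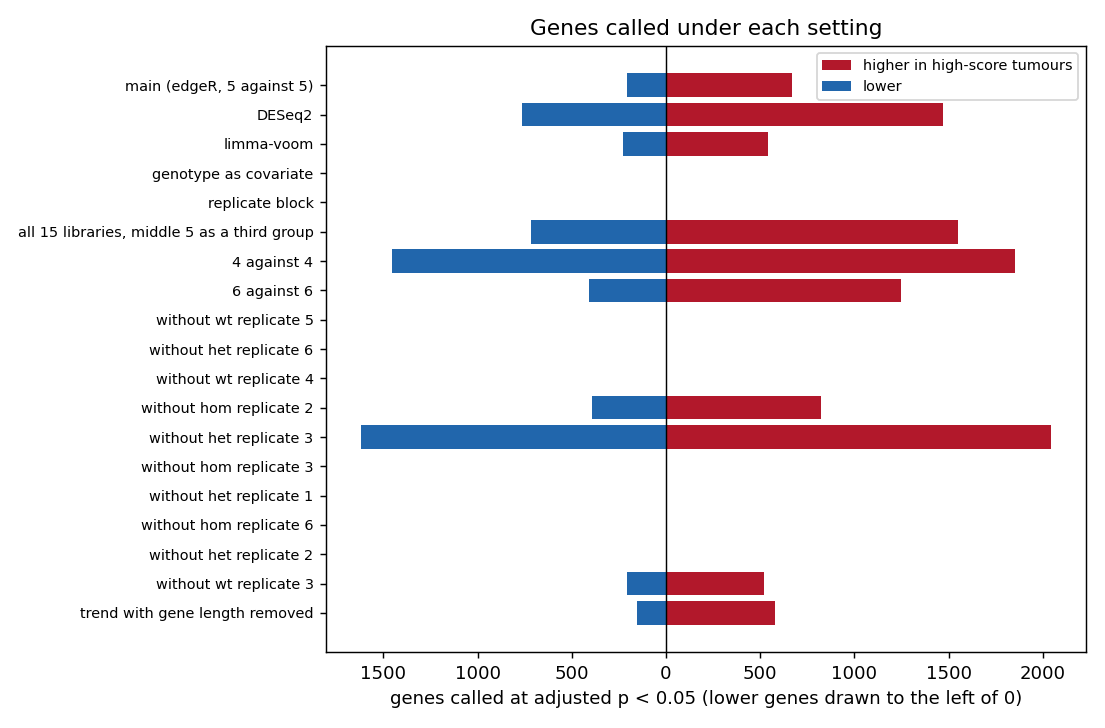
Genes called at an edgeR adjusted p under 0.05 (horizontal axis, number of genes; higher in the high tumours to the right of 0, lower to the left) under each setting (vertical axis; DESeq2 and limma-voom use their own tests). Bars are missing where 0 genes were called, and the setting without het 3 has 2044 higher and 1620 lower genes.

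Of the 670 higher genes, 117 belonged to 8 lists of cell cycle genes, and 0 of the 207 lower genes did. The 8 are origin licensing, DNA synthesis, mitotic kinases, spindle, kinetochore, cell cycle transcription factors, homologous recombination and replication-dependent histones; the lists of G1 cyclins with CDK inhibitors and of p53 targets are not among them. Cell cycle genes share their regulation with the score genes, so their direction describes the score and is no independent result. Of 30 origin licensing and G1/S genes tested, 18 were higher and 0 lower; all 30 estimates were positive, with a median log2 fold change of 0.81, beside -0.02 over all 13911 genes. Gins2, a helicase activator, was at 33.3, 30.01, 32.8, 30.9 and 22.2 RPKM on the high and 17.8, 19.7, 15, 15.3 and 14.5 RPKM on the low side, with no overlap (log2 fold change 0.85, SE 0.15, edgeR adjusted p = 0.0381). Mcm7, another helicase subunit, and Gmnn, the inhibitor of origin licensing, were higher by 0.81 and 1.02 on the log2 scale. Ccne1, the cyclin that fires entry into DNA synthesis, was at 18.1, 18, 18.1, 13.1 and 13.3 against 13.2, 13.5, 10.3, 8.46 and 7.13 RPKM and missed the threshold (log2 fold change 0.61, SE 0.20, edgeR adjusted p = 0.0771).

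DNA synthesis and nucleotide supply was the list with the largest share called: 28 of 36 were higher, 0 were lower, and 27 were separated between the sides. Rpa2, which coats single-stranded DNA, was at 30.6, 28.8, 34.3, 27.8 and 22.5 RPKM in the high tumours and 15.8, 17.4, 14.1, 13.5 and 15.1 RPKM in the low tumours (0.92, SE 0.13). Rrm2 and Dut, which supply and clean up deoxynucleotides, were higher by 0.88 and 1.19. Pcna, the sliding clamp of the polymerases, was at 142, 129, 139, 103 and 99.8 against 82.2, 81.2, 74.3, 63.5 and 76.1 RPKM (0.70, SE 0.13, edgeR adjusted p = 0.0381). Its lowest high tumour was het 3 and its highest low tumour was wt 3, the tumours at the edges of the 2 sides.

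Among mitotic kinases, cyclins and phosphatases, 21 of 28 were higher and 0 lower, at a median of 0.93, and the 1 negative estimate was Mad2l2 (-0.14). Aurkb, the kinase that corrects chromosome attachment, was higher by 1.03, Pbk by 1.17 and Ube2c, the ubiquitin carrier of the anaphase-promoting complex, by 1.33. Ube2c was at 223, 214, 240, 161 and 117 RPKM on the high and 109, 86.4, 64.5, 72 and 48.3 RPKM on the low side. Aurka, Plk1 and Ccna2 were higher by 1.02, 1.0 and 1.05; for Ccna2, wt 3 (52.8 RPKM) overlapped het 3 (52.4 RPKM).

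Spindle and kinesin genes had 13 of 28 higher and 0 lower. Tpx2, which recruits Aurora A to the spindle, was higher by 1.09, and the kinesins Kif18b and Kif22 by 0.95 and 0.96. Kinetochore and chromosome genes had 25 of 36 higher and 0 lower. Birc5 (survivin), a partner of Aurora B and an inhibitor of cell death, was at 36.5, 36.8, 41.7, 32.2 and 20.3 RPKM against 16.9, 16.3, 10.6, 13.5 and 9.46 RPKM (1.32, SE 0.22, edgeR adjusted p = 0.0381). Spc24 of the outer kinetochore and Cdca8 (borealin) were higher by 1.27 and 1.11.

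Within the high side, the tumours were not alike in these genes. The mean log2(RPKM + 1) over the 181 tested genes of the 6 lists was 4.46, 4.39, 4.29, 4.07 and 3.95 on the high side and 3.86, 3.63, 3.56, 3.47 and 3.25 on the low side. The 3 high tumours wt 5, het 6 and wt 4 stood above the rest, and het 3 and wt 3, at the edges of the sides, were close. The 6 lists together had 109 of 181 genes higher and 0 lower, and 82 separated. Leaving out wt 3 moved the median of the origin licensing list from 0.81 to 0.86 and that of the kinetochore list from 0.89 to 1.02.

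**Figure D3:**
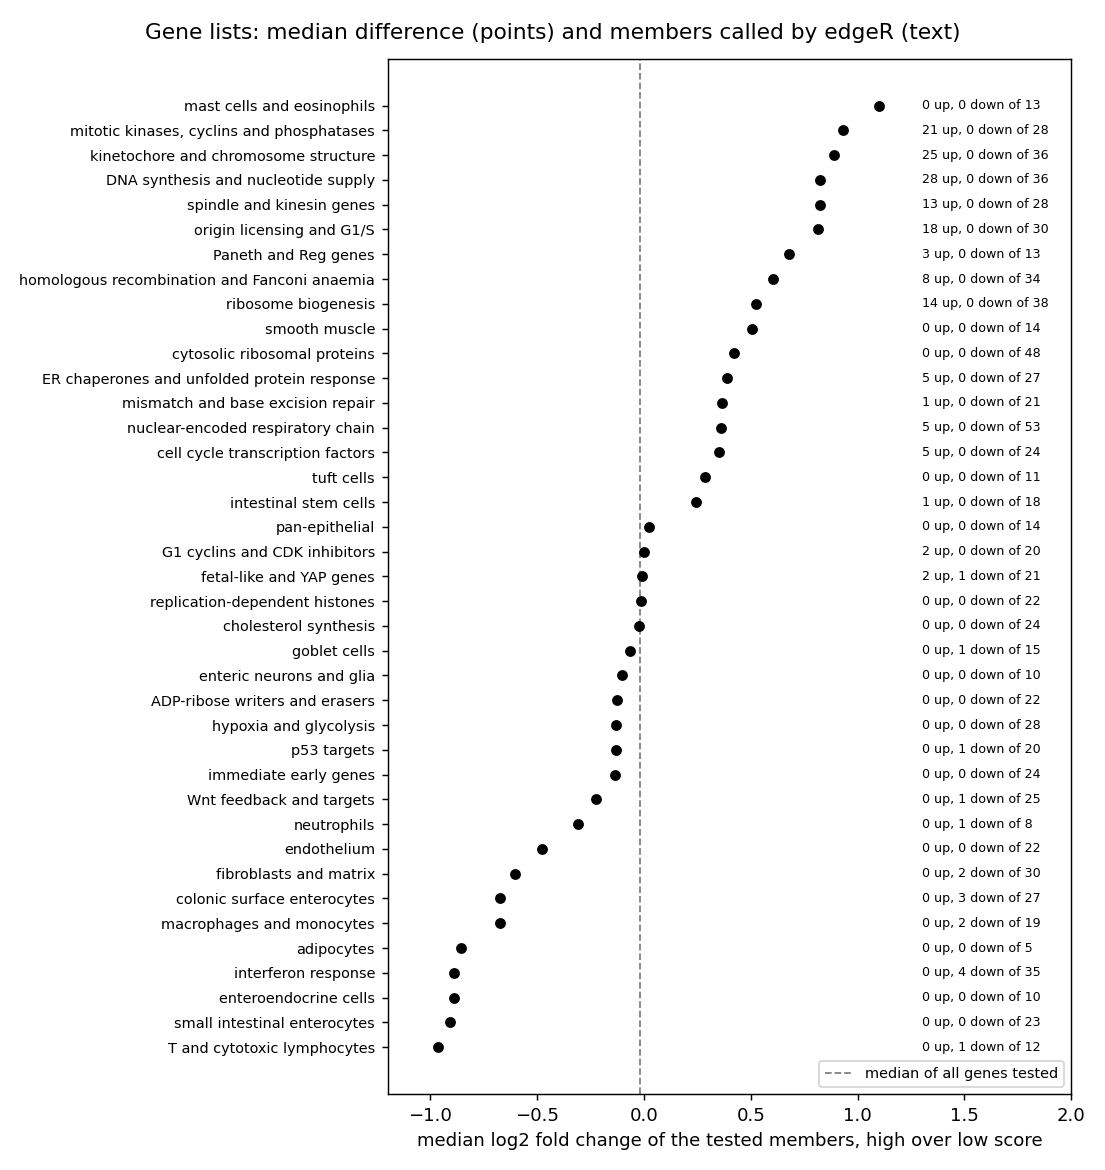
Median log2 fold change of the tested members of each gene list, high over low side (horizontal axis), with the number of members called by edgeR in each direction written at the right; the dashed line is the median of all genes tested, -0.02. Lists with fewer than 5 tested members are not drawn; the 5 replication and mitosis lists lie between 0.81 and 0.93, and the T cell list is the lowest of those drawn, at -0.96.

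Of 24 cell cycle transcription factors tested, 5 were higher and 0 lower, at a median of 0.35. E2f1 was at 8.29, 7.11, 8.27, 6.25 and 7.12 RPKM against 5.17, 5.6, 3.74, 3.63 and 3.13 RPKM, with no overlap (0.79, SE 0.19, edgeR adjusted p = 0.042). Mybl2 (B-Myb) and Foxm1 were higher by 0.79 and 0.78. The pocket proteins that hold E2F in check, Rb1 and Rbl2, had log2 fold changes of -0.42 and -0.35 (edgeR adjusted p = 0.324 and 0.148). Myc was at 61.8, 59.4, 54.2, 48.4 and 31.2 RPKM against 40.3, 37.4, 33.5, 38.2 and 50.04 RPKM, with het 3 below every low tumour (0.35, SE 0.18, adjusted p = 0.205).

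G1 cyclins and CDK inhibitors had 2 of 20 higher (4.82% over all genes tested) and 0 lower, with a median near 0. The 2 were Cdkn2c (p18, an inhibitor of Cdk4 and Cdk6) at 0.93 and Ccnd3 at 0.68. Ccnd1, the D cyclin best known as a Wnt target, was at 99, 91.9, 104, 65.7 and 96.1 against 80.4, 67.5, 59, 52.2 and 42.6 RPKM and missed the threshold (adjusted p = 0.0657). Cdkn1a (p21), which blocks CDKs after p53 activation, was at 63.8, 79.6, 72.2, 90.4 and 119 against 89.7, 119, 116, 117 and 161 RPKM (-0.51, SE 0.18, adjusted p = 0.0969). Cdkn1b (p27) had a log2 fold change of 0.04 and Cdkn2a one of 0.35, and Trp53 itself one of 0.45; these 3 were not called.

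Of 20 p53 targets tested, 0 were higher and 1 was lower. It was Pmaip1 (Noxa), which promotes cell death at mitochondria, at 10.7, 10.7, 10.5, 16.7 and 14.8 RPKM on the high and 19.8, 17.2, 28.4, 24.2 and 36.7 RPKM on the low side (-0.99, SE 0.21, edgeR adjusted p = 0.0381). The list's mean log2(RPKM + 1) was 3.46 to 3.58 in the high and 3.61 to 3.79 in the low tumours, with no overlap; the list median was -0.13.

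Homologous recombination and Fanconi genes had 8 of 34 higher and 0 lower, among them Bard1 (1.05), the Brca1 partner, and the nuclease subunit Eme1 (1.23). Mismatch and base excision repair had 1 of 21 higher, the glycosylase Neil3 (0.79), a share near the 4.82% of all genes tested. Of 22 writers and erasers of ADP-ribose, the modification that Macrod2 removes, 0 were called by edgeR; Parp1 had a log2 fold change of 0.43 (adjusted p = 0.105), Parp2 of 0.50 (0.0703) and Parp12 of -0.75 (0.105).

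Replication-dependent histones, whose messages lack a polyA tail, had 0 of 22 members called by edgeR and a median of -0.02. Their mean log2(RPKM + 1) was 3.42 in wt 3, the library with 27.0% Rn45s, and at most 2.13 in the other low tumours, against 2.19 to 2.41 in the high tumours. Without wt 3 the median was 0.48, and with the trend with gene length removed (described below) it was -0.51; the members are short, with a median length of 495 bases. The labels name polyA RNA together with a total RNA kit, and the part of the selection of RNA in these values was not tested.

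Ribosome biogenesis had 14 of 38 higher and 0 lower, with all 38 estimates positive and a median of 0.53. Rrs1, an assembly factor of the large subunit, was at 38.6, 42.8, 44.9, 29.99 and 26.6 RPKM on the high and 24.6, 24.6, 18.9, 19.9 and 22.7 RPKM on the low side (0.72, SE 0.16). Nop56, of the RNA methylation complex, and Tsr1, of the small subunit, were higher by 0.74 and 0.55. By tumour the list's mean log2(RPKM + 1) was 5.19, 5.31, 5.33, 4.92 and 4.74 against 4.64, 4.75, 4.53, 4.49 and 4.64, so het 3 lay within the low side.

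Odc1, the first enzyme of polyamine synthesis and a known Myc target, was at 82.9, 88.5, 94.9, 62.9 and 66.2 RPKM against 49.6, 47.2, 44.2, 35.7 and 33.6 RPKM (0.91, SE 0.16, edgeR adjusted p = 0.0381). Mxd4, which competes with Myc for the partner Max, went the other way, at 9.36, 9.1, 6.13, 9.29 and 11.5 RPKM on the high and 15.8, 14, 20.9, 20.7 and 19.2 RPKM on the low side (-1.0, SE 0.18, adjusted p = 0.0381). Odc1 lies at chr12:17544794-17551505 and Mxd4 at chr5:34173883-34187720 (mm10, GENCODE M21), and neither gene's sides overlapped.

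The nuclear-encoded respiratory chain had 5 of 53 higher and 0 lower, with all 53 estimates positive (median 0.36). Its share of higher genes was near that of all genes of 22 to 2118 bases, 372 of 4642. Cycs (cytochrome c), Atp5g1 and Ndufa5 were higher by 0.69, 0.73 and 0.88. Of 48 cytosolic ribosomal proteins, edgeR called 0 and all 48 estimates were positive (median 0.42); Rpl15 had the smallest p of these (adjusted p = 0.0924). Both lists hold short genes, with median lengths of 758 and 740 bases beside 2849 over all genes tested. Short genes read higher on the high side as a whole: the median log2 fold change was 0.16 for genes of 22 to 2118 bases, -0.01 for those of 2119 to 3742 bases and -0.14 for longer genes. The calls turned with length too, from 372 higher and 28 lower among the shortest genes through 227 and 56 to 71 higher and 123 lower among the longest; the median length was 1926 bases for higher and 4521 bases for lower genes. With each library's trend with length removed, an alternative chosen after seeing the data, the medians were 0.06 for the respiratory chain and 0.10 for ribosomal proteins, but 0.52 for ribosome biogenesis. The 6 lists of replication and division had medians of 0.93, 0.84 and 0.67 in the same 3 length classes. The length trend was strongest in wt 4 (-0.62 from short to long genes) and hom 2 (-0.35) on the high side and in hom 6 (0.56) and wt 3 (0.43) on the low side. The other high tumours were at -0.07 (wt 5), -0.13 (het 6) and 0.21 (het 3). The other low tumours were at -0.13 (het 2), 0.15 (het 1) and -0.11 (hom 3), so the sides overlapped in this trend. With the trend removed, 732 genes were called (580 higher and 152 lower), of which 574 were among the 877.

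ER chaperones had 5 of 27 higher and 0 lower, with 20 estimates positive and 7 negative. The list's mean log2(RPKM + 1) overlapped, at 5.74 to 6.43 in the high and 5.55 to 5.91 in the low tumours. The middle tumours ran from 5.73 to 6.21. Manf, a secreted stress protein, was at 134, 142, 244, 93 and 116 RPKM against 92.5, 78.2, 72.5, 63.9 and 55.2 RPKM (1.01, SE 0.25), highest in wt 4. Sdf2l1, a partner of the chaperone BiP, and Sec61b, of the protein channel, were higher by 1.18 and 0.73. Chac1, a target of the stress factors Atf4 and Chop, had a log2 fold change of -1.34 (adjusted p = 0.0645), with hom 3 at 5.46 RPKM.

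The gene with the smallest p among the higher genes outside the cell cycle lists was Ang4, an antimicrobial ribonuclease of Paneth and goblet cells (chr14:51763878-51773590). It was at 56.2, 148, 85.7, 53.1 and 78 RPKM on the high side and 24.4, 23.7, 16.9, 17.4 and 23.7 RPKM on the low side (1.98, SE 0.27, edgeR adjusted p = 0.0381). The high and low tumours did not overlap, and the middle tumours ran from 23.6 to 73.4 RPKM. Mptx2, a pentraxin of Paneth cells, was at 169, 138, 180, 109 and 102 against 35.1, 61, 42.1, 32.7 and 19 RPKM (1.87, SE 0.29). Among 13 Paneth and Reg genes tested, 3 were higher and 0 lower: Ang4, the lectin Itln1 (1.61) and the lysozyme Lyz1 (1.25). Of the 13 estimates, 9 were positive and 4 negative. The genes of this list are short, with a median length of 794 bases. Its median log2 fold change was 0.68, and 0.33 with the trend with gene length removed. Itln1 was at 131, 435, 324, 303 and 287 against 83.6, 125, 125, 64.3 and 84.3 RPKM. Lyz1 was at 715, 1875, 2095, 1933 and 1459 against 437, 846, 955, 432 and 721 RPKM, where wt 5 (715 RPKM) lay within the low side. The list's mean log2(RPKM + 1) overlapped, at 6.39 to 7.65 in the high and 6.60 to 7.30 in the low tumours. Ang4, Mptx2, Itln1 and Lyz1 have close copies in the genome, among which reads could have been divided.

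The other leading higher genes outside the cycle were Pcolce2, an enhancer of procollagen processing (2.75), Clhc1 (1.5), the calcium-activated potassium channel Kcnn4 (1.29), the nuclear envelope protein Nrm (0.74), Oaf (0.85), the nucleotide hydrolase Dnph1 (1.13), the creatine kinase Ckb (1.34), Txndc12 of the ER (0.52) and the mitochondrial ribosomal protein Mrpl12 (0.74). Kcnn4 was at 37.6, 70.8, 53.2, 31.8 and 43.1 RPKM on the high and 20.5, 21.6, 21.9, 16.5 and 16 RPKM on the low side. None of these genes' sides overlapped, and each had an edgeR adjusted p of 0.0381. For Pcolce2, limma on log2(RPKM + 1) gave 1.24, less than the 2.75 from counts, a gap that arises at low RPKM. With the trend with gene length removed, Txndc12 fell to 0.32 and was not called (edgeR adjusted p = 0.106). The others of these genes stayed called, with Mrpl12 at 0.47.

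**Figure D4:**
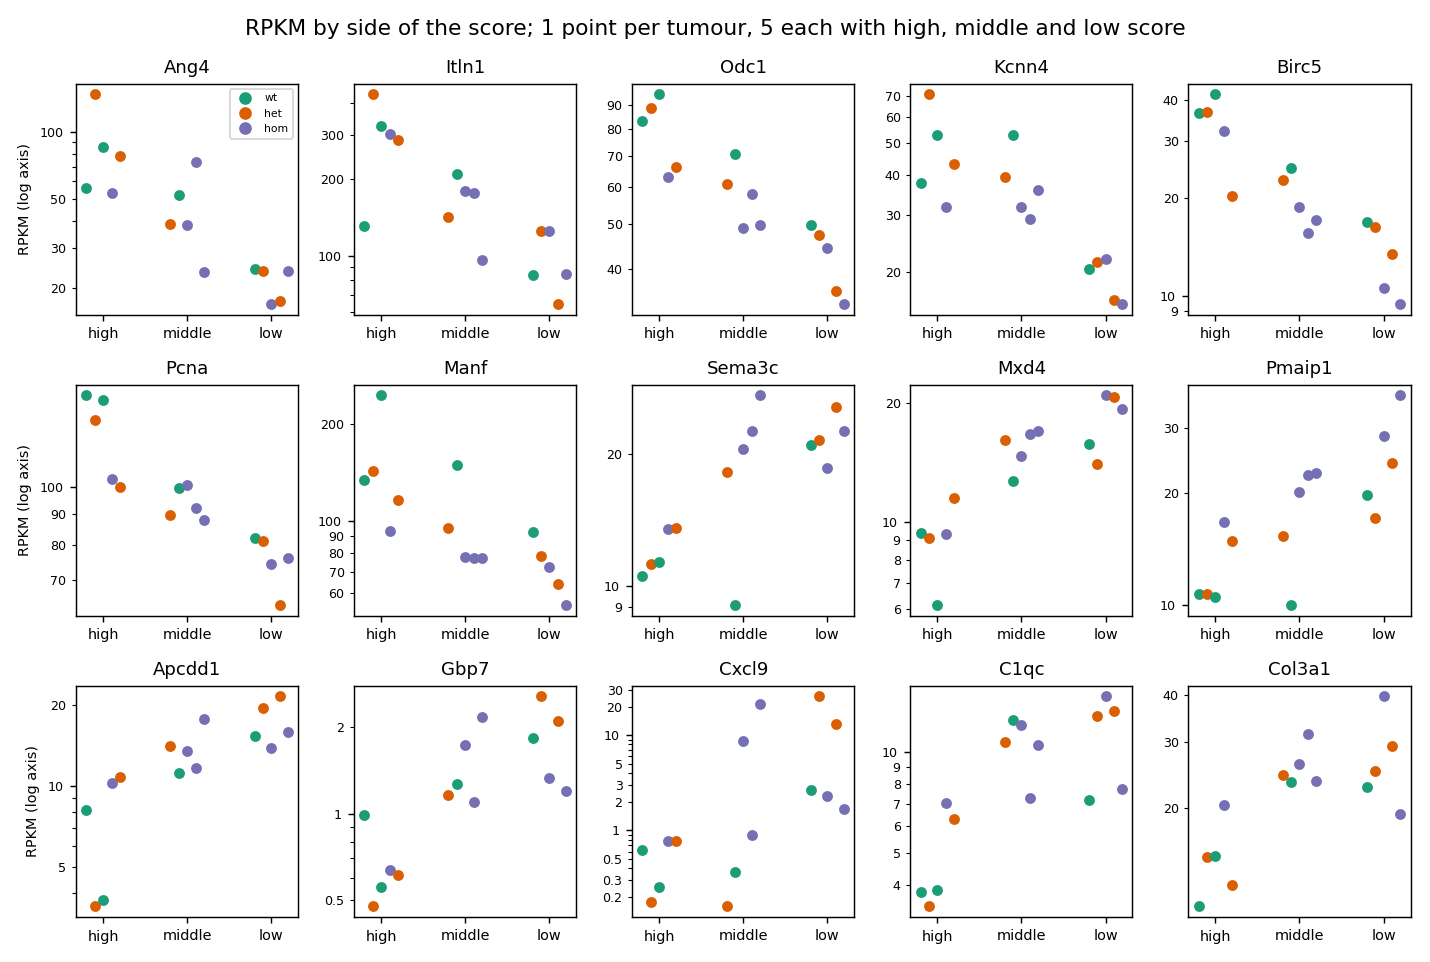
RPKM (vertical axis, log scale) of 15 genes in tumours with high, middle and low score (horizontal axis), 1 point per tumour coloured by Macrod2 genotype. For Ang4 the high tumours lie between 53.1 and 148 RPKM and the low tumours between 16.9 and 24.4; for Sema3c the order is turned, between 10.6 and 13.6 against 18.6 and 25.6.

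Among the lower genes, Sema3c, a secreted guidance cue (chr5:17574281-17730268), had the smallest p, at 10.6, 11.3, 11.3, 13.5 and 13.6 RPKM on the high and 21, 21.6, 18.6, 25.6 and 22.7 RPKM on the low side (-0.86, SE 0.12, edgeR adjusted p = 0.0381). The middle tumours ran from 9.06 to 27.3 RPKM and so beyond both sides. The uridylyltransferase Zcchc11 (-0.87), the copper protein Cp (-1.45), the receptor phosphatase Ptprt (-1.3), the amino acid transporter Slc38a5 (-2.15), the arrestin-like Arrdc4 (-1.0), Nrn1 (neuritin, -2.42), Thsd7a (-1.32), the thiamine transporter Slc19a3 (-1.1) and Nbea (-0.66) followed. Nrn1 was at 3.23, 3.1, 2.75, 12.2 and 5.34 RPKM against 13.5, 34.3, 28.2, 28.2 and 37.9 RPKM, with hom 2 closest to the low side. Among the 10 tumours, Cp was at most 4.34 RPKM, Slc38a5 at most 3.16 RPKM and Thsd7a at most 0.623 RPKM.

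Of 35 interferon response genes tested, 0 were higher and 4 were lower, with 34 estimates negative and a median of -0.89. Gbp7, an interferon-induced GTPase, was at 0.991, 0.477, 0.559, 0.638 and 0.613 RPKM against 1.84, 2.56, 1.33, 2.1 and 1.2 RPKM (-1.47, SE 0.28). Cxcl9, a chemokine for T cells, was at 0.621, 0.177, 0.251, 0.78 and 0.765 against 2.65, 25.6, 2.3, 13.3 and 1.67 RPKM (-4.14, SE 0.91), and Iigp1, another GTPase, was at 0.437, 0.201, 0.0935, 0.826 and 0.463 against 2.43, 17.4, 3.04, 9.82 and 1.82 RPKM (-4.1, SE 0.79). The low side was uneven: het 2 and het 1 had the highest levels of Cxcl9 and Iigp1. The list's mean log2(RPKM + 1) was 2.83, 3.44, 2.37, 3.93 and 2.25 in the low tumours, against 2.40, 2.18, 2.19, 2.33 and 2.65 in the high tumours, so hom 6 and hom 3 lay within the high side. The middle tumours ran from 2.73 to 3.50, above hom 6, hom 3 and every high tumour, so the level did not fall steadily with rising score. The 1 gene with a positive estimate was Bst2 (0.51, adjusted p = 0.344).

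The lists of macrophage, T cell, fibroblast and endothelial markers had negative medians, with few members called. In bulk tissue, fewer cells of a type and less RNA per cell cannot be told apart. Macrophage markers had 2 of 19 lower and 0 higher: the complement gene C1qc, at 3.84, 3.46, 3.88, 7.04 and 6.33 against 7.21, 12.8, 14.6, 13.2 and 7.74 RPKM (-1.19, SE 0.28), and the Fc receptor Fcgr3 (-1.11). T cell markers had 1 of 12 lower, Il7r (-1.74), which was at most 0.668 RPKM in the 10 tumours. Neutrophil markers had 1 of 8 lower, the protease Mmp9 (-1.44). Ptprc (CD45) was at 0.521, 0.463, 0.142, 0.677 and 1.08 against 1.23, 0.759, 1.24, 1.38 and 0.761 RPKM (adjusted p = 0.17).

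Fibroblast and matrix genes had 2 of 30 lower and 0 higher, with a median of -0.61. Col3a1, a fibrillar collagen, was at 11, 14.9, 14.9, 20.4 and 12.5 RPKM against 22.8, 25.2, 39.6, 29.2 and 19.3 RPKM (-0.89, SE 0.21), overlapping where hom 2 exceeded hom 3. Col6a2 was the other (-1.3), with hom 6 at 23.1 RPKM, and Col1a1 had an adjusted p of 0.17. Endothelial markers had 0 of 22 called by edgeR at a median of -0.48, which moved to -0.12 without hom 6. Vwf was at 0.742, 0.807, 0.645, 1.04 and 0.635 against 1.08, 1.26, 3.29, 1.14 and 1.47 RPKM, and Pecam1 turned from -0.34 to 0.21 without hom 6. Summed over the fibroblast list, RPKM was 275 to 400 on the high and 324 to 537 on the low side; over the macrophage list it was 81.9 to 125 and 102 to 149. The part of cell mixture in the results above was not tested. Epcam, an adhesion protein of epithelium, was at 1291, 1610, 1779, 1546 and 1607 RPKM on the high and 1263, 1218, 1191, 1421 and 1378 RPKM on the low side (adjusted p = 0.141), and 0 of 14 pan-epithelial genes were called.

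By mean log2(RPKM + 1), the genes of colonic surface enterocytes stood lowest in 4 of the 5 high tumours. Of the 27 tested, 3 were lower and 0 higher, at a median of -0.67. Lypd8, a surface protein that keeps bacteria off the epithelium, was at 469, 1222, 971, 1532 and 1468 RPKM against 1595, 2259, 2300, 3961 and 4100 RPKM (-1.33, SE 0.34, edgeR adjusted p = 0.0457). Car2 (-0.66), a carbonic anhydrase, and Cyp2c55 (-2.93), a cytochrome P450, were the others. Slc20a1, a phosphate carrier, had the 1 positive estimate (0.37, adjusted p = 0.0584). The list's mean log2(RPKM + 1) was 3.91, 4.48, 3.84, 4.65 and 5.66 on the high side and 5.32, 5.25, 5.51, 5.34 and 5.31 on the low side: het 3 had the highest mean of all 15 tumours. Krt20, a keratin of surface cells, showed the same tumour apart, at 187, 393, 249, 295 and 971 RPKM against 401, 515, 979, 502 and 937 RPKM (adjusted p = 0.324), as did Vil1, at 141, 246, 173, 192 and 554 against 301, 262, 430, 268 and 333 RPKM. Without het 3 the list's median was -1.16.

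Small intestinal enterocyte genes had 0 of 23 called by edgeR at a median of -0.91, and their levels ranged widely on the high side. The median was -0.59 without wt 4 and -2.75 with 4 against 4 tumours. Their summed RPKM was 1274, 3019, 353, 4864 and 19117 in the high tumours and 8007, 9285, 21984, 7128 and 23957 in the low tumours. Fabp1 was at 13, 42.8, 3.86, 49.4 and 62.1 RPKM against 33.3, 21.1, 516, 17.7 and 739 RPKM (adjusted p = 0.144). Goblet cell genes had 1 of 15 lower, the mucus protein Fcgbp (-1.46); Muc2, the main gel mucin, was at 30.4, 267, 171, 218 and 90.8 against 78.8, 204, 117, 199 and 211 RPKM, and Agr2, which folds mucins, had an adjusted p of 0.0531 at 1.05. Of 10 enteroendocrine genes, 0 were called by edgeR at a median of -0.89, with Chga at -0.90 (adjusted p = 0.105).

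The stem cell and Wnt lists overlapped between the sides in mean log2(RPKM + 1). Stem cell genes ran from 4.73 to 5.28 in the high and 4.54 to 4.95 in the low tumours. Wnt genes ran from 5.06 to 5.46 in the high and 5.44 to 5.58 in the low tumours. In the Wnt list, only wt 5 of the high tumours exceeded any low tumour. The list medians were 0.24 and -0.22, with 17 of 25 Wnt estimates negative. Lgr5, the crypt stem cell receptor, was at 42.3, 30.2, 34.4, 41 and 30.2 RPKM against 37.8, 27.7, 39.8, 44.6 and 24.5 RPKM (0.03, SE 0.18, adjusted p = 0.931). Cdca7 was the 1 higher gene of 18 stem cell genes (0.63), a share near the 4.82% of all genes tested. Smoc2 had an edgeR adjusted p of 0.0533 at 0.90. Of 25 Wnt feedback genes and targets, 0 were higher and 1 was lower: Apcdd1, a Wnt inhibitor at the cell surface, at 8.14, 3.57, 3.76, 10.2 and 10.8 RPKM on the high and 15.4, 19.4, 13.8, 21.5 and 15.9 RPKM on the low side (-1.24, SE 0.31, edgeR adjusted p = 0.0445). Axin2, the feedback inhibitor most used as a Wnt readout, was at 77.8, 47.9, 51.9, 79.8 and 65.4 against 98.9, 82.8, 76.8, 93.4 and 104 RPKM (-0.50, SE 0.16, adjusted p = 0.0736), and Ephb3 had a log2 fold change of 0.57 (adjusted p = 0.0505). Apc and Ctnnb1 were at -0.32 and -0.15 (adjusted p = 0.312 and 0.412). Fetal-like and YAP genes had 2 of 21 higher, Anxa3 (1.02) and the alarmin Il33 (1.01), beside 4.82% over all genes tested. They had 1 lower, Ankrd1 (-2.06), which was at most 1.21 RPKM.

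Mast cell and eosinophil genes had a median of 1.10, with 0 of 13 called by edgeR. Their summed RPKM was 674, 373, 452, 56.5 and 1682 on the high and 1021, 75.7, 25.9, 38.3 and 170 on the low side, so 1 high tumour was as low as most low tumours and wt 3 was among the highest. The median was 2.82 without wt 3, and it was 2.95 with a score without Ccnb1 and 0.11 with a score without Top2a. Spp1 (osteopontin) had a log2 fold change of 0.42 (adjusted p = 0.475). Of the remaining cell types, 0 of 14 smooth muscle genes (median 0.51), 0 of 10 genes of neurons and glia, 0 of 5 of adipocytes, 0 of 3 of B cells and 0 of 3 of erythroid cells were called; 5 globin genes of the erythroid list were at 0 in all 10 tumours. The hypoxia, immediate early, cholesterol synthesis and tuft cell lists had 0 members called by edgeR, with medians from -0.14 to 0.29.

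**Figure D5:**
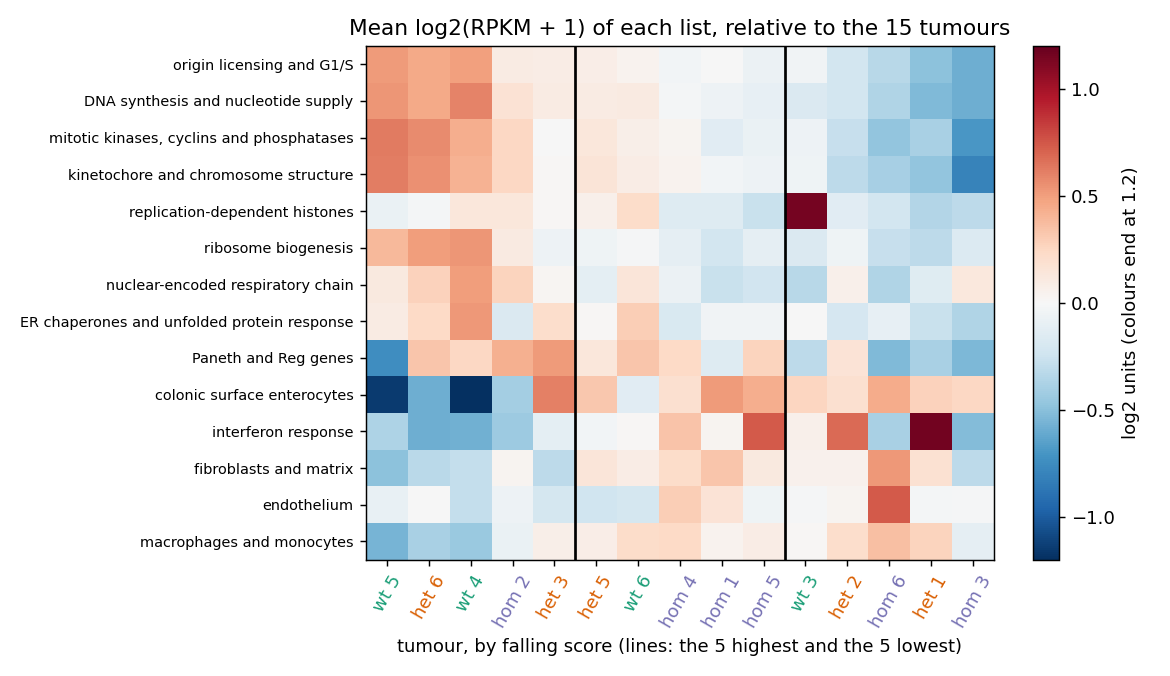
Mean log2(RPKM + 1) of 14 gene lists (rows) in each of the 15 tumours in falling order of score (columns), as the difference from the mean of the 15; red is above and blue below, and vertical lines set off the 5 highest and 5 lowest scores. The replication and mitosis rows fade from left to right, het 3 stands out in the enterocyte row at 5.66 before centring, and wt 3 in the histone row at 3.42.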

How the data were processed

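Resected tumours of Apc Min/+ mice were profiled by RNA sequencing in 18 libraries, each taken as a separate mouse. Trimmomatic, TopHat, featureCounts (Subread 1.4.5-p1) and genome build mm10 are listed per the submitters' processing notes. Whether counting used strand was not given in the sources used here; reads of a gene and an overlapping antisense gene cannot be told apart. The deposited files hold whole read counts per gene and, in the authors' second table, RPKM, which the values show to carry library scaling factors of 0.921 to 1.28, for 24062 genes.

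The 15 tumours were ranked by the mean of log2(RPKM + 1) over 5 genes. The 5 highest were compared with the 5 lowest from the counts with edgeR 4.0.16 (quasi-likelihood, TMM factors, filterByExpr, R 4.3.3), with Benjamini-Hochberg adjustment over the 13911 genes tested, leaving out the 5 score genes, and a threshold of 0.05. Scores of genotypes were compared by an exact permutation test (two-sided). The code was tested on simulated data. Mice were numbered within genotype, and the spread between tumours is the error behind each p.

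The tumours and the 43 gene lists were chosen with earlier results of these data known. Genes were named by rule: the 12 with the smallest p per direction outside the cell cycle lists (mean log2 CPM of at least 1, no predicted genes), up to 3 per list and direction, and a fixed set; Car1, Aqp8, Insl5, Fabp6, Slc10a2, Sis, Alpi, Gata4 and the Hox genes served as checks of the site. Alternatives were DESeq2 1.42.0, limma 3.58.1, other factors, filters, scores and group sizes, genotype as a covariate, each tumour left out, and removal of each library's trend with gene length (chosen after seeing the data). The 3 tumours left out are in no test, except that an alternative comparison of scores by genotype included wt 1 and wt 2. The difference of hom from wt was then -0.40 (exact two-sided permutation p = 0.158, adjusted 0.474). That of het from wt was -0.175 (exact permutation p = 0.537, adjusted 0.537). The mitochondrially encoded list was not analysed here. A member of the repair list and a further check of the site are not reported here.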

Additional observations from a re-analysis of the deposited data

Results flagged for a closer look

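Values were set apart where 1 of 5 tumours of a side lay far from the other 4 (Dixon's criterion); chance sets apart about 1 in 20 groups, and 25 of 333 groups were. On the high side, het 3 had Krt20 at 971 RPKM (next 393), Vil1 at 554 RPKM and Parp12 at 20.4 RPKM (next 9.98). hom 2 had Nrn1 at 12.2 RPKM, Car2 at 7.87 RPKM and Mmp9 at 5.99 RPKM, each the highest, and a mean log2(RPKM + 1) of erythroid genes of 1.75. wt 4 had Cycs at 58.7 RPKM and Cdkn2a at 7.33 RPKM, and het 6 had Slc19a3 at 0.998 RPKM, the lowest. wt 5 had the lowest mean log2(RPKM + 1) of Paneth and Reg genes, 6.39 (next 7.39), and of RNAs without a polyA tail, 5.04.

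On the low side, wt 3 had a mean log2(RPKM + 1) of 11.95 for RNAs without a polyA tail (next 6.21), 3.42 for replication-dependent histones (next 2.13), 2.13 for erythroid genes, 2.11 for tuft cell genes and, as the lowest, 4.72 for goblet cell genes; its Ckb was at 57.3 RPKM. hom 6 had Vwf at 3.29 RPKM, Pecam1 at 8.82 RPKM, Col6a2 at 23.1 RPKM and a mean of 2.62 for endothelial genes (next 1.91). het 2 had Slc38a5 at 3.16 RPKM, the highest, and Rbl2 at 8.24 RPKM, the lowest, and hom 3 had Chac1 at 5.46 RPKM (next 2.08).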

How the results depend on the processing

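Calls sat close to the threshold, so their number moved with most settings. Against 877 calls (670 higher, 207 lower), DESeq2 called 2233 (1470 and 763), the fit of all 15 libraries with the middle 5 as a separate group 2266 (1548 and 718), the score as a number over 15 libraries 3927 (2212 and 1715), 4 against 4 tumours 3305 (1853 and 1452) and 6 against 6 tumours 1653 (1247 and 406). A score without Top2a gave 1807 (1245 and 562), without Ccnb1 1602 (1050 and 552) and without Cdk1 1067 with 367 lower genes; each exchanged 1 tumour. Upper quartile factors gave 247 (179 and 68), and genotype as a covariate gave 0 (0 higher and 0 lower). Leaving out 1 tumour gave 0 to 3664 calls, 0 to 2044 higher and 0 to 1620 lower. The other settings, among them limma-voom, limma on log2(RPKM + 1), the count filters and the removal of the length trend (732), stayed within 1.5 times of the 877.

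The replicate block (mouse number as a block) gave 0 calls (0 higher, 0 lower, 964 at an unadjusted p under 0.05 by edgeR). Mouse numbers are counted within genotype, so equal numbers are different mice. The deviations of the 4 same-numbered pairs across the sides correlated at -0.13 to 0.20. Those of differently numbered pairs across the sides ran from -0.46 (wt 4 and hom 6) to 0.46 (het 3 and hom 6). So few pairs cannot show whether tumours of equal number shared a batch, and this was not tested. The difference between sides in the block fit rests only on tumours that share a number across the sides.

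Uncalled genes near 0 changed sign in some settings. With genotype as a covariate Lgr5 was -0.0099, Muc2 0.14 and Cdkn2a -0.40; with the replicate block Muc2 was 0.13; with the length trend removed Cdkn1b was -0.0093 and Muc2 0.082; with a score without Ccnb1 Lgr5 was -0.041. Over the fits with 1 tumour left out, Cdkn1b ran from -0.033 to 0.097, Lgr5 from -0.078 to 0.13, Muc2 from -0.34 to 0.16, Pecam1 from -0.51 to 0.21 and Cdkn2a from -0.57 to 1.02. The exact genotype comparisons of the score kept their direction under each score tried. With 5 tumours a side an exact permutation test of a single gene cannot go below p = 0.00794.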

Other observations

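The 3 tumours outside the selection had scores within the range of the 15. het 4, labelled as small intestine, scored 5.46, above hom 2 (5.35) and het 3 (5.30) of the high side. wt 2 scored 4.86 and wt 1 scored 5.03, on either side of wt 3 (5.02).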
